A study of Homo sapiens with 6 samples.

Results

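AP-1 and immediate early genes were examined in CAL-27, an established human tongue squamous carcinoma cell line, after knockdown of XBP-1s. The set held 10 genes, namely the FOS factors FOS, FOSB, FOSL1 and FOSL2, the JUN factors JUN, JUNB and JUND, the related factor ATF3, the zinc finger factor EGR1 and the phosphatase DUSP1. Members were the non-control probes whose RefSeq accession belonged to one of these symbols, which gave 13 of the 34127 probes on the array and 10 of its 19740 named genes, with 4 probes for ATF3 and 1 for each of the other genes. All 13 probes were well above background on all 6 arrays and none was saturated, so all 13 were among the 27624 probes tested.

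The first group, shXBP-1s (n = 3), was CAL-27 carrying an shRNA against XBP-1s, and the second, shCtrl (n = 3), was the same line carrying a control shRNA. Per the study's methods the hairpin was introduced by stable transduction, and neither the number of hairpins nor of independent transductions is given in the sources used here. The labels do not say whether the 3 arrays of a group came from separate cultures, so p-values measured only the spread between these samples, which may be technical. Total RNA was hybridised in a single colour (Cy3) to an Agilent whole human genome array, and a level below is the background-subtracted signal of a probe divided by the 75th percentile of its own array. Such levels can be compared between arrays for a given probe, but not between probes.

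XBP-1s is the transcription factor made when IRE1 splices the XBP1 mRNA during stress of the endoplasmic reticulum. AP-1 is a dimer of basic leucine zipper proteins, in which a JUN factor pairs with another JUN factor, a FOS factor or an ATF factor and binds short DNA elements in promoters and enhancers. Most genes for these factors are immediate early genes, which growth factors and stress induce within minutes through MAP kinases without new protein synthesis. In squamous epithelium AP-1 acts on both matrix proteases and genes of terminal differentiation.

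The start regions of 4 members are shown because they hold the elements through which JUN, ATF and CREB dimers are known to bind. The 200 bases before the annotated start were taken from RefSeq on GRCh38.p14 and are written 5′ to 3′ on the strand of the gene. JUN lies on the minus strand (chr1:58784048-58784247), ATF3 on the plus strand (chr1:212565207-212565406, the first of its 2 annotated starts), DUSP1 on the minus strand (chr5:172771196-172771395) and FOS on the plus strand (chr14:75278628-75278827). Capitals mark TGACATCA, TGACGTCA and the core TGACG, on either strand.
JUN: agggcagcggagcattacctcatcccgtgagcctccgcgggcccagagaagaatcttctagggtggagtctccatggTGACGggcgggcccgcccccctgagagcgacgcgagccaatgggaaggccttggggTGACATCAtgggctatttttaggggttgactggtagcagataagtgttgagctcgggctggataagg
ATF3: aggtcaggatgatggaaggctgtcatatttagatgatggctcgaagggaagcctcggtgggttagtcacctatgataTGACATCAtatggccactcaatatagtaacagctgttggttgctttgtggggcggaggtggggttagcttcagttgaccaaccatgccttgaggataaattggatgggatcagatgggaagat
DUSP1: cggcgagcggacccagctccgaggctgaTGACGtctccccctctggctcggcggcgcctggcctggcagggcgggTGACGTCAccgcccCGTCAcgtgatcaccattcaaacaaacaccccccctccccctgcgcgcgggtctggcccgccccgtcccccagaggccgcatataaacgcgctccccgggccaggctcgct
FOS: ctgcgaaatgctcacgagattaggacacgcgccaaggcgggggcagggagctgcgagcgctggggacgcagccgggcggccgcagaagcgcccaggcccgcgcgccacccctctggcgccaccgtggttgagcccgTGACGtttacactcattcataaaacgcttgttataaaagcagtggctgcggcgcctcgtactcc

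Windows of 300 bases, from 250 before to 50 after the start, were given for 9 of the 10 genes, and FOSL1 had no entry. TGACATCA, known as the JUN-type element of the JUN promoter, stood at position -67 of JUN and at position -123 of the first ATF3 start, and in 2.61% of all 35116 windows. TGACGTCA, the cyclic AMP response element, stood at position -125 of DUSP1 and at position -200 of JUND, and in 1.85% of all windows. Its core TGACG, which TGACGTCA contains, was found in 8 of the 9 genes against 24.6% of all windows, and ATF3 was the gene without it. The classical AP-1 element TGACTCA was found in FOSL2 alone (4.95% of all windows), and TGACGTG, a core of the XBP1-bound element that also contains TGACG, in FOSL2 and EGR1 (1.97%). The CArG box, the element of serum response factor, was matched at 2 places in EGR1 and in none of the other windows (1.29% of all windows). TATAAA, the letters of the TATA box, was found in 5 of the 9 genes and in 11.5% of all windows. It stood at positions -33 of FOS, -30 of FOSB, -31 of JUNB and -30 of DUSP1, but at the distant position -230 of ATF3. All motifs were searched on both strands and only within these windows, so an element further from the start would be missed. These matches are letters in a reference sequence, and binding was not measured.

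The targeted gene was checked first. XBP1, measured by a probe assigned to the transcript NM_005080 and not to the spliced form alone, was at 3.69, 3.60 and 3.66 times the array's 75th percentile in shCtrl and at 0.707, 0.690 and 0.695 in shXBP-1s. Its level was 5.23-fold lower in shXBP-1s (adjusted p = 2.81e-07, limma). Between 82.1% and 84.8% of the spots of an array were above background. Arrays correlated at 0.993 to 0.998 within a group and at 0.981 to 0.986 between groups (log2 values over all tested probes). The 75th percentile itself was higher in shXBP-1s (792 to 983.4 intensity units) than in shCtrl (687.4 to 761.3). By the time of scanning, shCtrl 2 and shCtrl 3 formed scan 1 and the other 4 arrays scan 2, so the difference of shXBP-1s from shCtrl 1 within scan 2 is given beside the results. All 8 squamous epithelial markers were above background, with a summed level of 101.1 to 107.8 in shCtrl and 136.2 to 161.6 in shXBP-1s. The highest levels in this sum in shCtrl were those of SFN (45.3), CDH1 (29.1) and EPCAM (25.4). Such sums serve to compare arrays within a list of markers, not lists with each other. Of the markers of other cells, 4 of 5 fibroblast markers (0.945 to 1.04 in shCtrl and 0.608 to 0.631 in shXBP-1s, COL3A1 not above background), 4 of 4 immune (0.691 to 0.748 and 0.767 to 0.864) and 3 of 3 endothelial markers (0.197 to 0.259 and 0.244 to 0.260) were above background, with LUM higher by 1.94 and PDGFRB lower (-1.28) on the log2 scale among the fibroblast markers. Their part in the results was not tested. In such bulk RNA, a different make-up of the culture and a different amount of an mRNA per cell cannot be told apart.

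A probe was called when its adjusted p was below 0.05 and its change at least 2-fold. Of the 13 probes, 1 was called higher in shXBP-1s, that of JUN, and 0 were called lower, whereas 2.29% of all tested probes were called higher and 2.61% lower. By adjusted p alone, 7 of the 13 rose (18.4% of all probes), 2 fell (23.3%) and 4 did not pass. The probes that rose were those of JUN, JUNB, JUND, FOSL1 and DUSP1 and 2 of the 4 for ATF3, and those that fell were FOS and EGR1. The groups did not overlap for 12 of the 13 probes, and for 52.4% of all probes. Taking the brightest probe of each gene, 1 of 10 genes was called higher (2.3% of all 16821 genes tested) and 0 lower (2.88%), 5 rose by adjusted p (18.9%), 2 fell (27.5%) and 3 did not pass. The median log2 fold change over the 13 probes was 0.24, against -0.02 over all probes, and their median absolute log2 fold change was 0.50, against 0.23.

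**Figure D1:**
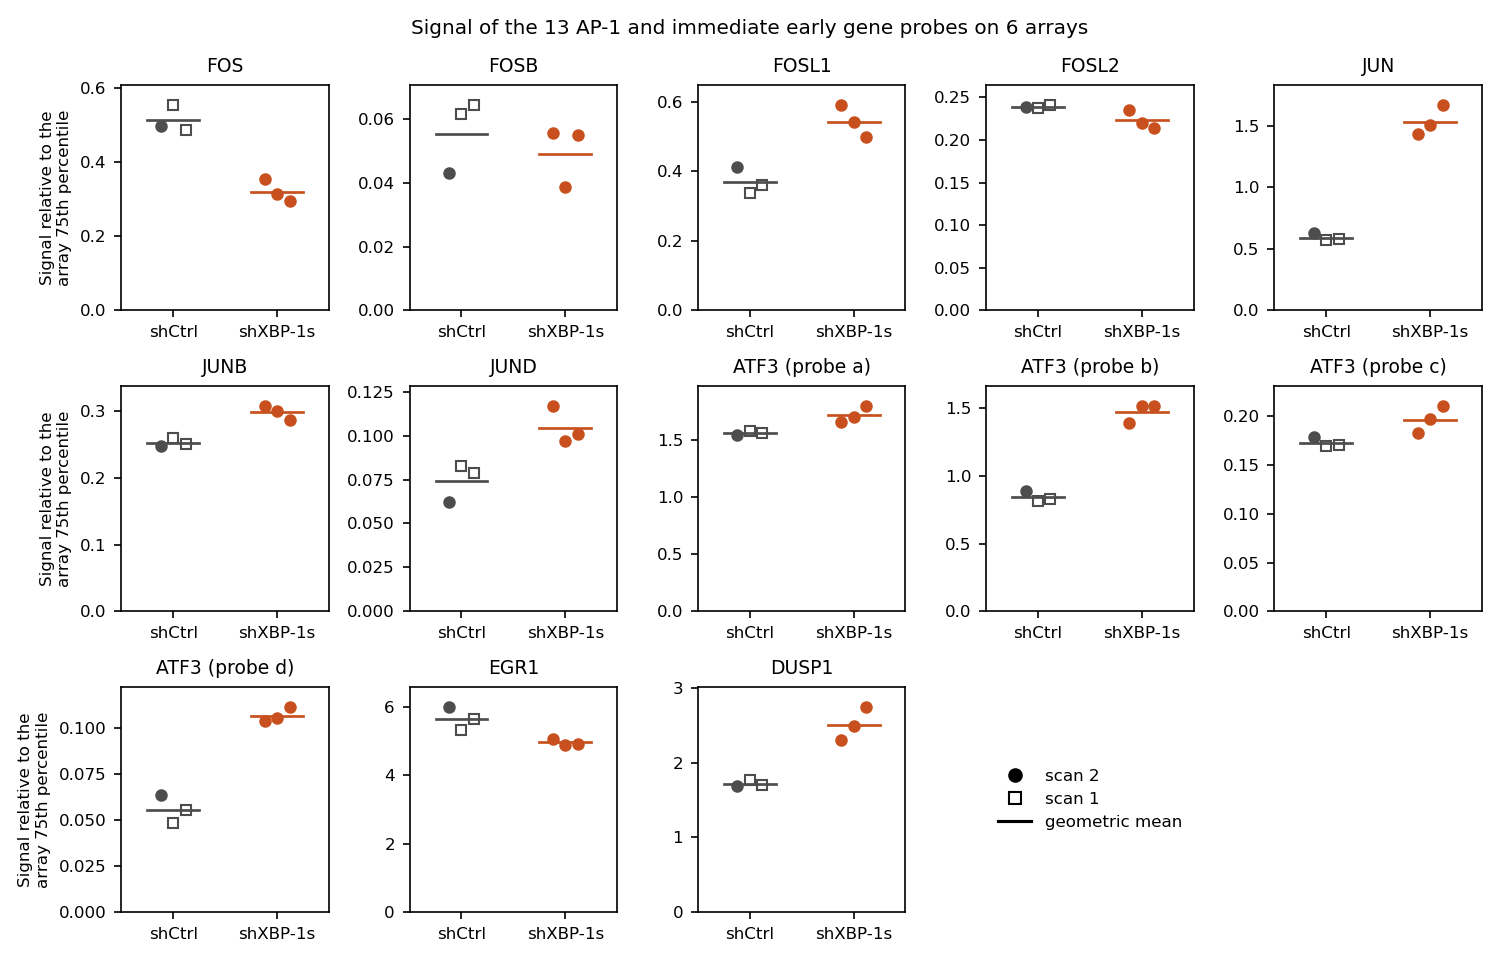
Level of each of the 13 probes (signal relative to the 75th percentile of the array, linear axis from 0) on the 3 shCtrl (grey) and 3 shXBP-1s (orange) arrays, with open squares for scan 1, filled circles for scan 2 and a line for the geometric mean of the group; the 4 ATF3 probes are lettered a to d from the brightest to the dimmest. JUN stood at 0.569 to 0.626 in shCtrl and 1.43 to 1.67 in shXBP-1s, FOS lay lower in every shXBP-1s array, and only FOSB overlapped between the groups.

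JUN, the main partner in AP-1 dimers and the member with the largest change, was measured by probe A_33_P3323298. Its level was 0.626, 0.569 and 0.579 in shCtrl 1, 2 and 3 and 1.43, 1.51 and 1.67 in shXBP-1s 1, 2 and 3. Every shXBP-1s array thus lay well above every shCtrl array, and the gap between the groups (1.19 on the log2 scale) was larger than the range within either (0.14 and 0.22). The level rose 2.59-fold (95% interval 2.32 to 2.90; log2 fold change 1.38, SE 0.07; adjusted p = 4.79e-06, limma). Before any scaling the signals were already apart, at 430.5 to 437.7 intensity units in shCtrl and 1320 to 1409 in shXBP-1s. In rank, JUN moved from the 72.1st to 73.2nd percentile of probes to the 82.9th to 84.3rd. Against shCtrl 1 alone, in the same scan, the log2 difference was 1.29.

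JUNB and JUND are the other JUN factors, with weaker activating activity in many settings, and JUND is usually expressed without a stimulus. The JUNB level was 0.248, 0.260 and 0.251 in shCtrl and 0.308, 0.301 and 0.287 in shXBP-1s. It rose 1.18-fold (log2 fold change 0.24, SE 0.06; adjusted p = 0.01, limma), with groups that did not overlap and a log2 difference of 0.27 within scan 2. The JUND level was 0.0624, 0.0827 and 0.0788 in shCtrl and 0.117, 0.0968 and 0.101 in shXBP-1s. The JUND probe was dim and shCtrl 1 was its lowest array. Its level rose 1.41-fold (log2 fold change 0.50, SE 0.13; adjusted p = 0.0145, limma), and by 0.74 on the log2 scale within scan 2. Under another background correction, normexp, the median log2 fold change over all tested probes was -0.41. The log2 fold changes of JUNB and JUND were then -0.04 and -0.27, and relative to that median they were 0.37 and 0.14. For JUN these values were 1.22 and 1.63. The adjusted p without shXBP-1s 2 was 0.054 for JUNB, and without shXBP-1s 1 it was 0.0522 for JUND.

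The FOS factors did not move together. FOS, which pairs with JUN factors and cannot pair with itself, was at 0.498, 0.554 and 0.486 in shCtrl and at 0.353, 0.315 and 0.295 in shXBP-1s. All 3 shXBP-1s arrays lay below all 3 shCtrl arrays, and the level fell 1.60-fold (95% interval 1.40 to 1.83; adjusted p = 3.47e-04, limma). Without scaling the groups overlapped, since the signals were 342.3, 421.4 and 367.4 intensity units in shCtrl and 347.2, 281.8 and 233.3 in shXBP-1s, whose arrays were brighter as a whole. In rank, which needs no scaling factor, FOS moved from the 70.2nd to 71.8th percentile of probes to the 64.8th to 66.6th. The log2 fold change was -0.68 (SE 0.08), was -0.64 within scan 2, and lay between -0.75 and -0.39 over 19 settings of the analysis. With normexp it was -0.55, or -0.13 relative to the median of all probes under that correction.

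FOSL1, which encodes FRA-1, a FOS factor without the strong activation domain of FOS, moved the other way. Its level was 0.412, 0.339 and 0.361 in shCtrl and 0.590, 0.543 and 0.500 in shXBP-1s. The groups did not overlap, and the level rose 1.47-fold (95% interval 1.27 to 1.70; log2 fold change 0.56, SE 0.09; adjusted p = 0.00162, limma). The rise was 0.40 on the log2 scale within scan 2, and with normexp it was 0.31 and did not pass (adjusted p = 0.16). FOSL2, which encodes FRA-2, was at 0.238, 0.237 and 0.241 in shCtrl and at 0.235, 0.220 and 0.214 in shXBP-1s. The groups were only 0.01 apart on the log2 scale, and the log2 fold change was -0.10 (95% interval -0.24 to 0.04; adjusted p = 0.22, limma). FOSB, at 0.0430, 0.0614 and 0.0643 in shCtrl and 0.0556, 0.0386 and 0.0551 in shXBP-1s, was the member with overlapping groups. Its log2 fold change of -0.17 had a 95% interval from -0.63 to 0.28 (adjusted p = 0.52, limma), and the shXBP-1s mean was 0.19 above shCtrl 1 within scan 2. The limit for FOSB is this interval, which spans both a fall and a rise, so the direction of a change was not settled.

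ATF3 is a stress-induced factor of the same leucine zipper class, which pairs with JUN and often represses. Its 4 probes gave different sizes. On the brightest, A_33_P3214096, the level was 1.54, 1.58 and 1.56 in shCtrl and 1.65, 1.70 and 1.80 in shXBP-1s. The log2 fold change of 0.14 (SE 0.05) did not pass (adjusted p = 0.0519, limma). On A_23_P34915 it was 0.891, 0.815 and 0.831 in shCtrl and 1.39, 1.52 and 1.52 in shXBP-1s. There the level rose 1.75-fold (95% interval 1.59 to 1.91; log2 fold change 0.80; adjusted p = 2.32e-05, limma), with a log2 difference of 0.73 within scan 2. On A_24_P33895, the dimmest, it was 0.0638, 0.0488 and 0.0557 in shCtrl and 0.104, 0.105 and 0.112 in shXBP-1s. This was a 1.92-fold rise (95% interval 1.61 to 2.28; log2 fold change 0.94; adjusted p = 2.67e-04, limma), which was 0.74 on the log2 scale within scan 2 and passed 2-fold without shCtrl 1 (1.03). On A_33_P3214105 it was 0.179, 0.169 and 0.171 in shCtrl and 0.183, 0.197 and 0.210 in shXBP-1s. The log2 fold change was 0.18 (adjusted p = 0.0713, limma).

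All 4 ATF3 probes were thus higher in every shXBP-1s array than in every shCtrl array, but 2 of them passed and 2 did not. The last of them was assigned to the transcript NM_001674 in the array's design and the other 3 to NM_001040619, so the split between large and small changes did not follow the assigned transcript. Averaged over its 4 probes, ATF3 had a log2 fold change of 0.52 (adjusted p = 1.88e-04, limma). With normexp A_23_P34915 kept a log2 fold change of 0.61, while A_24_P33895 and A_33_P3214105 were at -0.13 and -0.25, or 0.28 and 0.16 relative to the median of all probes.

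**Figure D2:**
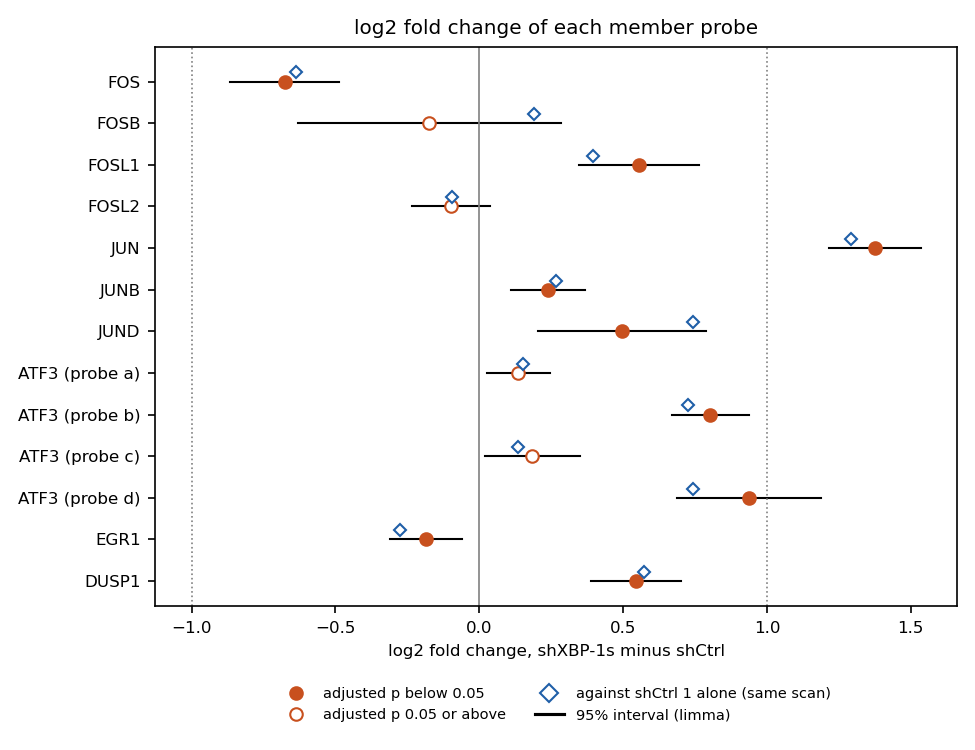
log2 fold change (shXBP-1s minus shCtrl, horizontal axis) of each of the 13 probes with its 95% interval from limma, filled where the adjusted p was below 0.05, and as a blue diamond the difference from shCtrl 1 alone, the control array of the same scan; dotted lines mark 2-fold. JUN at 1.38 was the only probe past 2-fold, FOS at -0.68 the furthest below 0, and FOSB the only one whose diamond fell on the other side of 0.

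EGR1, a zinc finger factor whose gene is a classical target of serum response factor, was among the brighter probes. Its level was 5.997, 5.32 and 5.64 in shCtrl and 5.08, 4.89 and 4.92 in shXBP-1s. The groups did not overlap, and the level fell with a log2 fold change of -0.19 (SE 0.05; adjusted p = 0.0265, limma). The unscaled signals overlapped (4047 to 4259 intensity units in shCtrl and 3894 to 4992 in shXBP-1s), and so did the ranks, at the 93.4th to 94.3rd percentile and the 93.1st to 93.6th. The fall did not pass in 9 of the other 18 settings, among them quantile normalization (adjusted p = 0.0652), the deposited log2 values (adjusted p = 0.114) and 4 of the 6 that left out an array. Relative to the median of all probes under normexp its sign was positive (0.33).

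DUSP1, the phosphatase that switches off MAP kinases and is itself induced by them, was measured by a probe with 10 spots on each array. Its level was 1.68, 1.77 and 1.70 in shCtrl and 2.30, 2.49 and 2.74 in shXBP-1s. The lowest shXBP-1s array was well above the highest shCtrl array. The level rose 1.46-fold (95% interval 1.31 to 1.63; log2 fold change 0.55, SE 0.07; adjusted p = 3.78e-04, limma), the log2 difference within scan 2 was 0.57, and the values over all settings lay between 0.48 and 0.61. Taken one probe at a time, the exact 2-sided permutation p was 0.1, the smallest that 3 arrays against 3 allow, for every member probe but that of FOSB (0.5).

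**Figure D3:**
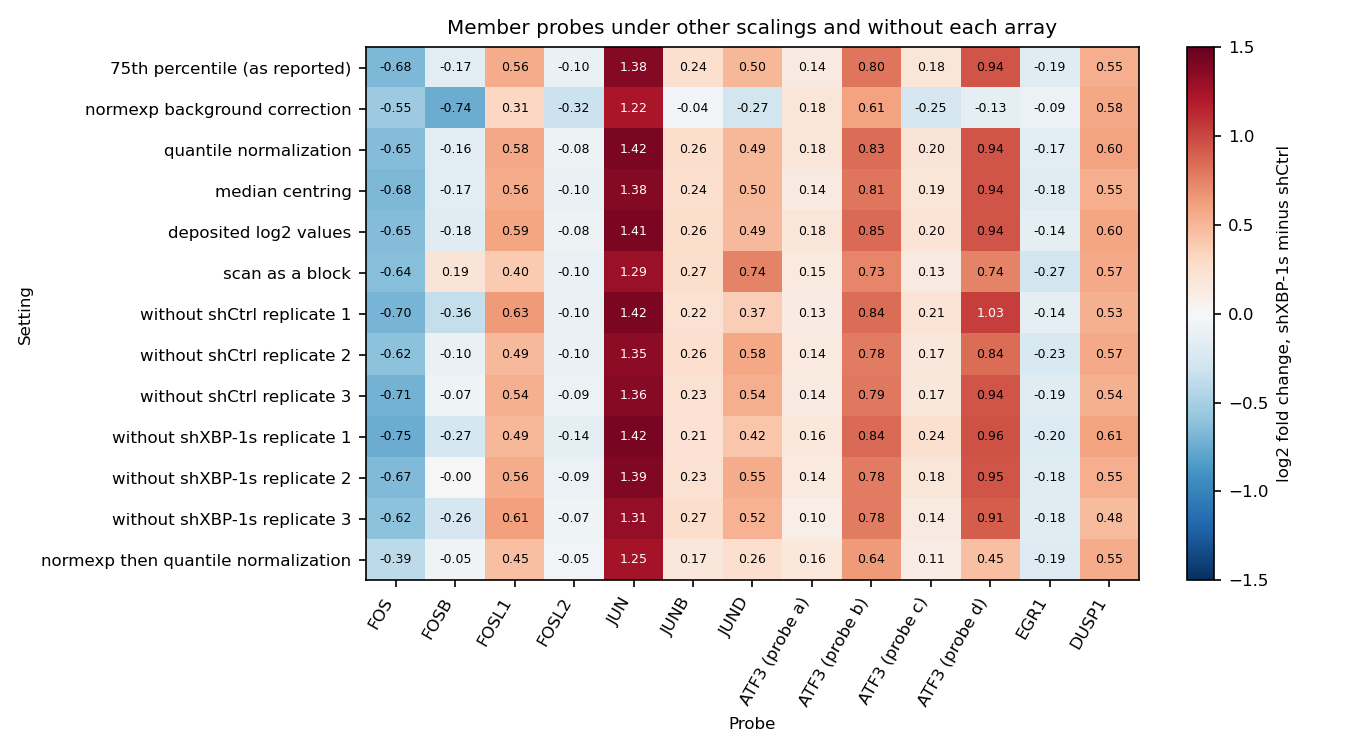
log2 fold change (shXBP-1s minus shCtrl, colour and number) of the 13 probes (columns) as reported (top row), under other background corrections and scalings, with the scan as a block and without each array in turn. JUN kept values from 1.22 to 1.42 in every row, and DUSP1 and FOS kept their direction. The second row, normexp, put JUNB, JUND and ATF3 probes c and d below 0, and its median log2 fold change over all tested probes was -0.41.

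Many genes shared the pattern of JUN. Over the 6 arrays, the 3 genes whose log2 values followed JUN most closely were CDV3 (r = 0.9999, log2 fold change 0.80), ERO1A, an oxidase of the endoplasmic reticulum (r = 0.9998, log2 fold change 1.20), and HMGB3P1 (r = 0.9998, log2 fold change 0.95). As 1526 of 16820 genes had an r above 0.95 with JUN, and the 6 points fall into the 2 groups, these values describe the difference between the groups more than anything within them.

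The genes that work around AP-1 were described by 5 lists, each gene by its brightest probe. The lists were chosen with earlier results of these data known, so their counts are descriptions and no test. The counts below stand against 2.3% called higher, 2.88% called lower, 18.9% that rose and 27.5% that fell among all 16821 genes tested. Among 18 AP-1 dimer partners, 2 were called higher and 0 lower, 7 rose and 3 fell by adjusted p, and the median log2 fold change was 0.09, against -0.04 over all genes. The 2 called were MAF, a leucine zipper factor with its own recognition element, whose level was 0.0710, 0.0664 and 0.0689 in shCtrl and 0.216, 0.253 and 0.297 in shXBP-1s (log2 fold change 1.88; adjusted p = 1.02e-05, limma), and CREB5, a relative of ATF2 that pairs with JUN (log2 fold change 1.42; adjusted p = 7.59e-06, limma). CREB5 stood at 0.0790 to 0.0905 in shCtrl and 0.212 to 0.237 in shXBP-1s. The probes of MAF and CREB5 were dim in shCtrl, although above background on all 3 arrays, so the sizes of both changes are uncertain.

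Upstream of the members stood the MAP kinase and serum response factor cascade, with 37 genes tested of 38. Of these, 1 was called higher (2.3% of all genes) and 0 lower (2.88%). By adjusted p, 11 rose (18.9%) and 10 fell, a share near the 27.5% of all genes, and the median log2 fold change was -0.02. Among 16 of 17 MAP kinase feedback inhibitors, the group to which DUSP1 belongs by function, 10 rose (18.9% of all genes) and 2 fell (27.5%), with a median log2 fold change of 0.38. The 1 called was DUSP6, a phosphatase of MAP kinases, at 2.41, 2.46 and 2.46 in shCtrl and 5.14, 5.52 and 5.56 in shXBP-1s (log2 fold change 1.15; adjusted p = 2.62e-06, limma).

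Of the other immediate early genes (43 tested of 44), 14 rose (18.9% of all genes) and 11 fell, a share near the 27.5% of all genes, 3 were called higher (2.3%) and 2 lower (2.88%), and the median log2 fold change was 0.11. The 3 called higher were KLF6, a zinc finger factor (log2 fold change 1.53; adjusted p = 5.99e-06, limma), CXCL8, which encodes the chemokine interleukin-8 (1.25; adjusted p = 7.20e-06), and CCN1, a secreted matrix protein (1.25; adjusted p = 2.62e-06). Both genes called lower lay close to the 2-fold limit. NFKBIA, the inhibitor of NF-kappaB, had a log2 fold change of -1.03 (adjusted p = 1.84e-05, limma) that was -0.93 within scan 2. PLK2, a kinase induced by serum, had -1.01 (adjusted p = 3.81e-05, limma).

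Of 22 textbook targets of AP-1 tested of 23, 17 rose (18.9% of all genes) and 4 fell (27.5%) by adjusted p. Of the same 22, 8 were called higher (2.3%) and 1 lower (2.88%), and the median log2 fold change was 0.87. As this list too was chosen with earlier results known, its distance from the shares of all genes is a description. Among the 17, IVL was above background on only 1 of 3 shCtrl arrays and was tested through the shXBP-1s arrays, so its rise is no support for the count. SPRR1B, a precursor of the cornified envelope of squamous cells, was at 0.0335, 0.0377 and 0.0404 in shCtrl and at 0.374, 0.491 and 0.611 in shXBP-1s. Its log2 fold change was 3.70 (adjusted p = 3.48e-06, limma). The matrix proteases MMP10 and MMP13 had log2 fold changes of 3.31 (adjusted p = 7.91e-06, limma) and 2.19 (adjusted p = 4.44e-06, limma). MMP10 was at 0.0313 to 0.0506 in shCtrl and 0.348 to 0.489 in shXBP-1s, and MMP13 at 0.0195 to 0.0235 and 0.0916 to 0.0992. The probes of SPRR1B, MMP10 and MMP13 were dim in shCtrl, although above background on all 3 arrays, so the sizes of these changes are uncertain. CXCL8, also a member of this list, was given above. The 1 called lower was CCND1, the gene of cyclin D1, at 4.64 to 5.12 in shCtrl and 1.76 to 2.16 in shXBP-1s (log2 fold change -1.30; adjusted p = 1.04e-05, limma). Among the others called higher, and named after their values were seen, were MMP12 (log2 fold change 1.46), MMP1 (1.25) and TGM1 (1.21). Their probes were dim in shCtrl too. SPRR1B and TGM1 are also genes of squamous differentiation, and in the same arrays the log2 differences of the 8 squamous markers ran from 0.01 for EPCAM, 0.13 for CDH1 and 0.71 for SFN to 1.43 for KRT5, 1.58 for KRT14 and 4.28 for KRT6A, with TP63 at 0.93 and DSG3 at 1.17. Whether AP-1 had a part in any of these changes was not tested.

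**Figure D4:**
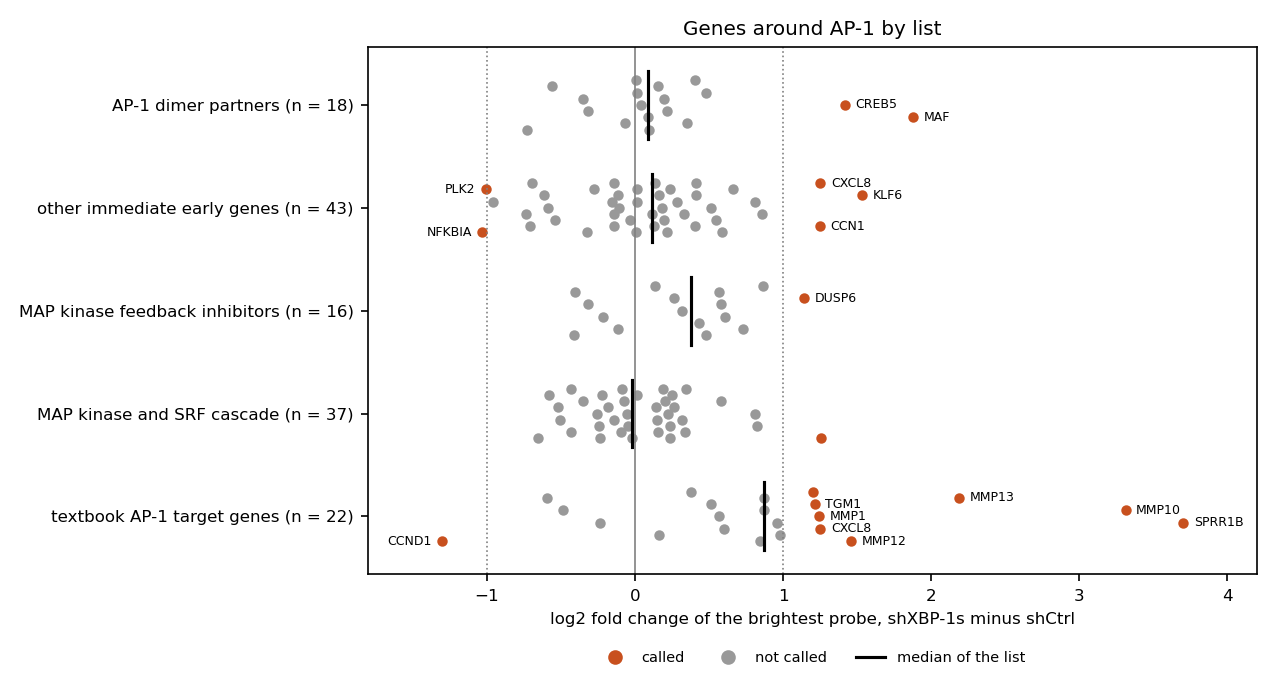
log2 fold change (shXBP-1s minus shCtrl, horizontal axis) of the brightest probe of each gene in the 5 lists, with called genes in orange, those described in the text named, the others in grey, a black line at the median of the list and dotted lines at 2-fold. The AP-1 targets had the highest median (0.87) and the longest range, from CCND1 at -1.30 to SPRR1B at 3.70, and the other 4 medians lay between -0.02 and 0.38.

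Across the 5 lists together, 132 genes were tested with each counted once, of which 14 were called higher (2.3% of all genes) and 3 lower (2.88%), 55 rose (18.9%) and 30 fell (27.5%) by adjusted p, and the median log2 fold change was 0.15. Some genes had a dimmer probe that was called while the brightest was not. Their log2 fold changes were -1.60 against 0.005 for IER5L, 1.26 against 0.86 for RHOB, 1.74 against 0.96 for PLAU and 1.13 against 0.15 for MAPK10. Probes of DUSP8 and of RPS6KA3 passed the adjusted p in opposite directions. With normexp 9 of the 132 genes were called in place of 17, while the count over all probes went from 1354 to 473.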

How the data were processed

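Gene expression was measured on 6 single-colour Agilent arrays, 3 shCtrl and 3 shXBP-1s, grouped and numbered by the labels. For each array the authors deposited scanner output of Agilent Feature Extraction 11.0.1.1, where spot intensity means signal after subtraction of background. The labelling protocol in the labels describes NimbleGen reagents, while the scanner output and the study's methods name an Agilent array. The authors also deposited a table of log2 values, used as an alternative. Its scale and direction followed the scanner intensities (r = 0.9997 to 0.9999, every column median 6.27), the submitters' processing notes name RMA, and its centring is not given in the sources used here.

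The log2 intensity minus the 75th percentile of the array was averaged over the spots of a probe, without flagged spots. Of 34127 probes, 25771 had a symbol, and 27624 passed the filter on dim probes, being well above background (over 50% of spots) throughout shCtrl or throughout shXBP-1s. Groups were compared by the moderated test of limma 3.58.1 under R 4.3.3, 2-sided, with lmFit, a trended eBayes and Benjamini-Hochberg adjustment. A probe was called at 2-fold or more with an adjusted p under 0.05. The steps were tested on simulated data. The precision is limited by the number of arrays.

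The members and the gene lists were chosen with earlier results of these data known. Named were all member probes, XBP1, up to 5 called genes per list by smallest p, and the 3 genes most correlated with each of up to 3 called members (only JUN was called). Promoter sequences came from RefSeq (GRCh38.p14), while the array's design names an older build, so no probe coordinates are given. Some called genes of the lists are counted but not reported here by name. The number of unused per-sample columns was 0. Alternatives were normexp (offset 50, on the median spot signal, since the files used here hold no mean signal), quantile normalization, median centring, the deposited values, other probe filters, no variance trend, the methods' 2-sample test, no minimum fold, the replicate number or the scan as a block, the mean of a gene's probes, and leaving out each array. Normexp with quantile normalization and the methods' test without adjustment were chosen after seeing the data.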

Additional observations from a re-analysis of the deposited data

How the results depend on the processing

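JUN was called in all 19 settings, and FOS and DUSP1 kept their direction and an adjusted p below 0.05 in all of them. Over the 13 member probes and 18 alternatives, 208 values kept their direction and side of the threshold, 13 no longer passed, 8 newly passed and 5 changed sign. Normexp gave log2 fold changes of -0.27 for JUND, -0.043 for JUNB, and -0.25 and -0.13 for the ATF3 probes A_33_P3214105 and A_24_P33895. It also moved the median log2 fold change over all tested probes to -0.41. Relative to that median these 4 stayed positive, at 0.14, 0.37, 0.16 and 0.28, and EGR1 and FOSL2 turned positive, at 0.33 and 0.09. The scan as a block compares shXBP-1s with shCtrl 1 alone, since scan 1 held only shCtrl arrays. It gave 0.19 for FOSB, the same difference within scan 2 as reported above. The cause of the shift with normexp was not tested. Without a minimum fold, 9 of the 13 member probes passed the adjusted p, as did 11516 of all 27624 probes tested. By brightest probe, 7 of 10 member genes and 85 of 132 list genes passed. Among all genes, 18.9% rose and 27.5% fell by this measure. Of the list genes, 17 were called as reported, 9 with normexp and 11 with normexp then quantile normalization, and normexp moved the share of higher among all called probes from 46.7% to 33.6%. Leaving out each array gave 1 to 2 member probes (2 without shCtrl 1, with ATF3 A_24_P33895 added), 1 member gene in each case and 16 to 18 list genes. Over all probes, 1253 to 1695 were called.

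The labels do not say whether the replicate numbers pair the samples. The deviations of same-numbered arrays correlated at -0.016, 0.117 and -0.116, and those of differently numbered arrays at -0.125 to 0.117. With 3 arrays per group these values cannot decide whether the samples were paired. With the replicate block, 1 member probe, 1 member gene and 17 list genes were called, and 1381 probes in place of 1354 in all. The methods' 2-sample test called 1 member probe, 1 member gene and 17 list genes both before and after Benjamini-Hochberg adjustment.

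The dim probes of FOSB, JUND and ATF3 (A_24_P33895) limit what can be said of these genes, as do 3 arrays per group and a single control array in the scan that held all shXBP-1s arrays. The AP-1 targets SPRR1B, TGM1, MMP1, MMP10, MMP12 and MMP13 and the dimer partners MAF and CREB5 were also dim in shCtrl. This limits the sizes given for them.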
